A study of Mus musculus with 16 samples.

Results

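The transcription factor genes of the ventral forebrain Gsx1, Gsx2, Vax1, Sox6, Nkx2-1 and Isl1 (6 genes) were followed in mouse rhabdoid tumors. They were listed by name, as genes of the ganglionic eminences and neighboring ventral forebrain, with earlier results of these data known. All are protein-coding (GRCm38, GENCODE release M21): Gsx1 at chr5:147188696-147190947 and Gsx2 at chr5:75075601-75077893 on the plus strand, and Vax1 at chr19:59166187-59170056, Sox6 at chr7:115470872-116038796, Nkx2-1 at chr12:56531958-56536908 and Isl1 at chr13:116298281-116309689 on the minus strand. All 6 were found in both deposited tables, among 21854 genes with at least 1 count in any tumor, and all 6 were tested.

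RNA-seq covered 16 primary rhabdoid tumors (RT), each from a different mouse. Every mouse had the genotype Smarcb1flox/flox;R26-CreERT2: both copies of Smarcb1, a subunit of the SWI/SNF chromatin remodeling complex, were floxed, and a tamoxifen-dependent Cre was driven from the Rosa26 locus, which is active in most cell types. Deletion was therefore not directed to any lineage, and the cell in which a tumor began is not known from the design. There were 5 tumors within the brain parenchyma (intra-CNS), 6 within the skull but outside the parenchyma (intracranial extra-CNS) and 5 outside the skull (extracranial: 2 of the jaw and 1 each of the back, nose and mouth). In the study, tumors within the parenchyma are of the Shh subgroup and those outside it of the Myc subgroup, so the comparison of 5 against 11 tumors by site is also the comparison by subgroup. All 5 intra-CNS tumors followed tamoxifen at embryonic day 6 (E6) and were taken at an age of 30 to 180 days. The intracranial extra-CNS tumors followed tamoxifen at E6 (1), E7 (1) or E8 (4) and were taken at 52 to 170 days. The extracranial tumors followed tamoxifen at E6 (1) or E8 (4) and were taken at 80 to 210 days. Only 2 tumors outside the CNS shared the E6 induction, so that site and day of induction can hardly be told apart. For 43990A the sample label gives the nose and the mouse list of the study an intracranial extra-CNS site, and the label was followed. No normal brain was among the samples, and all levels are those of whole tumors.

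The embryonic telencephalon is patterned from dorsal to ventral. Sonic hedgehog, secreted ventrally, and FGFs of the anterior midline promote ventral identity, and Gli3 in its repressor form opposes it. The ventral part forms the lateral, medial and caudal ganglionic eminences, the source of striatal neurons and cortical interneurons. Gsx2 and Gsx1 are closely related homeodomain factors of eminence progenitors, which act upstream of the Dlx genes. Nkx2-1 is the homeodomain factor that specifies the medial eminence, the preoptic area and much of the hypothalamus. Medial eminence cells that leave the cycle normally switch on the LIM homeodomain genes Lhx6 and Lhx8. Sox6 is an SoxD factor of their interneuron progeny. Vax1 acts in the ventral anterior forebrain and optic stalk, and Isl1 marks striatal projection neurons of the lateral eminence.

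Total counts ranged from 17889968 to 110177889 per tumor, and 3 counts or fewer in a tumor were read as the detection floor. Reads carry no molecular identifiers, so floors and intervals cover counting error only. Smarcb1, the targeted gene, was detected in every tumor. In the intra-CNS tumors it lay at 58.1 TPM (a level per transcript length and library depth) in 29048, 3.99 in 38594A, 9.91 in 29050A, 4.48 in R26P98 and 7.08 in R26P87. In the outside tumors it ranged from 6.48 to 43.7 TPM, with a median of 12.2, and was highest in R26P115. The count covers the whole gene, and reads from deleted and intact alleles cannot be told apart. The tumor 29048 stood apart in markers too: its oligodendrocyte markers summed to 5853 TPM, against 78.7 to 273 in the other intra-CNS tumors, with Mbp at 1972 TPM. In R26P115, Ttr, a gene of choroid plexus and liver, took 10.1% of all counts. Results are therefore also given without both tumors. Macrophage and microglia markers summed to 519 to 851 TPM in intra-CNS tumors and to 517 to 5886 TPM outside, and 6 of 9 were lower in intra-CNS tumors. In whole tumors, fewer cells of a type and less RNA per cell cannot be told apart.

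The upstream sequences of 4 members are shown because these genes were under 2 TPM in every outside tumor, with the exception of Vax1 in 43992A, and because each had a single window in the table that overlapped no annotated exon. Sox6 has several starts and the Isl1 window overlaps an exon, so neither is printed. Each is the 250 bases before the start of the gene in RefSeq (GRCm38.p6, the mm10 assembly), 5′ to 3′ on the strand of the gene. The RefSeq start of Vax1 lies upstream of the GENCODE gene. The Gsx1 window lies at chr5:147188446-147188695 (plus strand), Gsx2 at chr5:75075351-75075600 (plus strand), Vax1 at chr19:59170398-59170647 (minus strand) and Nkx2-1 at chr12:56536909-56537158 (minus strand). Capitals mark matches to any of 7 motifs described after the sequences.
Gsx1: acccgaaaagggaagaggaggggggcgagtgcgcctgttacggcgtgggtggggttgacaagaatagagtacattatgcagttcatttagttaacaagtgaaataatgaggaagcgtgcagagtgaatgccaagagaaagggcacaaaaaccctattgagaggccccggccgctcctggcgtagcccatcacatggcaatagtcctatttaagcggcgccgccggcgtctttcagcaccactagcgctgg
Gsx2: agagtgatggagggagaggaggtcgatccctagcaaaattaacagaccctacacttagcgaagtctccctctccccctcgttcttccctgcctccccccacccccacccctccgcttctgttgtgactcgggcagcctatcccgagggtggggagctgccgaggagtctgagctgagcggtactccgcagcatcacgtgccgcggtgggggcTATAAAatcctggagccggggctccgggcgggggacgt
Vax1: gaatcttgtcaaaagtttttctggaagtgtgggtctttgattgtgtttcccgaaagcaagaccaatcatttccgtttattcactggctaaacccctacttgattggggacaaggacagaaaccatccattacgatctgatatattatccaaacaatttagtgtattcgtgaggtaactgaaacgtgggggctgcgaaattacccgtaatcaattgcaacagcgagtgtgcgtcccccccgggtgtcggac
Nkx2-1: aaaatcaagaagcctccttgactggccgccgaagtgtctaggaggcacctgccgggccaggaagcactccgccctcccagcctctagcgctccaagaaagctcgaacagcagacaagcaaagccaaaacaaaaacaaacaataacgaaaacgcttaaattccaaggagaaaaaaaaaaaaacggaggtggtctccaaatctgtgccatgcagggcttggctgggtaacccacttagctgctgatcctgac
Of the 7 motifs, searched on both strands in 32851 windows of this length, the single match here was TATAAA in Gsx2, at bases -38 to -33 counted from the start of the gene. This TATA box was held by 12.4% of all windows. The homeodomain core TAATTA was held by 4.84%. The E-box CAGCTG was held by 13% of them. The Rbpj motif TGGGAA was held by 21.6% and the Gli motif GACCACCCA by 0.225%. The Sox motif ACAATG was held by 10.7%, and the Nkx2-1 motif CACTTGA by 2.68%. The GC content was 54.0% in Gsx1, 63.6% in Gsx2, 44.8% in Vax1 and 50.8% in Nkx2-1, against a median of 52.4% and quartiles of 45.2% and 61.2% over all windows. The Gsx1 window held no match to any of the 7 motifs, so that it could share none with Gsx2.

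Of the 6 members, Gsx1, Gsx2, Sox6 and Nkx2-1 (4 genes) were called higher in intra-CNS than in outside tumors, and none was called lower. A call needed an adjusted p under 0.05 (edgeR's quasi-likelihood test, Benjamini-Hochberg adjustment over all 21854 genes) and an absolute log2 fold change above 1. By this rule 26% of all genes tested were called, 12.9% higher and 13.1% lower in intra-CNS tumors, so that 49.7% of calls were higher. On log2(TPM + 1), limma called 24.8% of genes, 18.7% higher and 6.06% lower, and 75.5% of its calls were higher. For 3 members, Gsx1, Sox6 and Nkx2-1, the TPM was higher in every intra-CNS tumor than in any outside tumor, which held for 12.9% of 21841 genes. Gsx2, Vax1 and Isl1 overlapped between the groups. Since each tumor came from its own mouse, p-values measure the spread between these tumors.

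Markers of normal brain cells were also compared between the groups. Of 10 oligodendrocyte markers 6 were higher and 1 lower in intra-CNS tumors (median log2 fold change 3.77), of 8 astrocyte markers 4 were higher (2.77), and of 12 markers of differentiated neurons 7 were higher (4.61). The oligodendrocyte markers nevertheless summed to a lower median in intra-CNS tumors (141.9 TPM) than outside (217.2 TPM). The astrocyte markers summed to a median of 599.8 TPM in intra-CNS tumors, where they ranged from 178 to 3122 TPM, and of 199.7 TPM outside. The neuron markers summed to 230 to 4909 TPM in intra-CNS tumors and 39.4 to 1753 TPM outside, and 29048 was the highest for both lists. None of the 6 members was highest in 29048 among intra-CNS tumors, and Gsx1 was lowest there (11.3 TPM). Without 29048 and R26P115, 1 oligodendrocyte, 1 astrocyte and 6 neuron markers were higher, with median log2 fold changes of -0.15, 1.20 and 3.25. In that fit the log2 fold changes were 11.66 for Gsx1 (adjusted p = 1.26e-05), 4.47 for Gsx2 (0.0235), 6.69 for Nkx2-1 (0.000808) and 3.89 for Vax1 (0.0783). The part of the neuron markers in the members' levels was not tested.

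**Figure D1:**
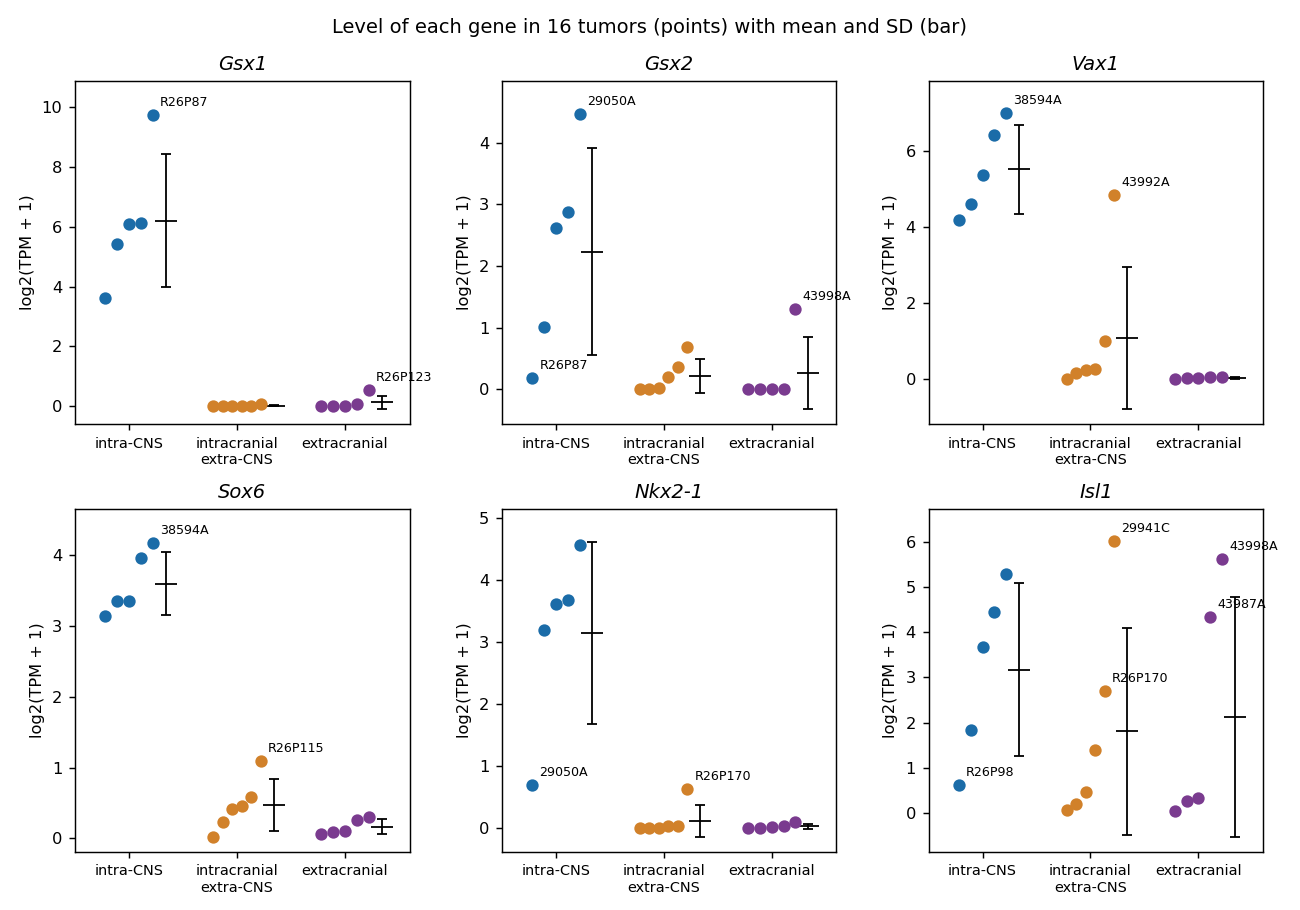
Level of each gene as log2(TPM + 1) in the 16 tumors, 1 point per tumor, with the mean and SD of each group as a bar; the y axes differ between panels. Gsx1, Sox6 and Nkx2-1 are higher in every intra-CNS tumor than in any other, whereas Vax1 is also high in 43992A and Isl1 in 29941C, 43998A and 43987A.

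Gsx1 had the highest log2 fold change of the 6 members. In the intra-CNS tumors it was at 11.3 TPM in 29048, 69.6 in 38594A, 67.1 in 29050A, 42.3 in R26P98 and 858 in R26P87, from 236 to 13745 reads. Of the 11 outside tumors, 8 had no read. The others were 29225D and 43987A, with 2 reads each, and R26P123, with 11 reads (0.441 TPM). Even the lowest intra-CNS tumor was thus far above the highest outside tumor, and the groups did not overlap. The log2 fold change was 11.43 ± 1.22 (SE, edgeR, adjusted p = 1.03e-05). It was 9.30 without R26P87 (adjusted p = 6.42e-05) and 13.11 without R26P123 (3.34e-06). Within the intra-CNS group the level was uneven, and R26P87 held 13745 of the 19235 reads.

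Gsx2, the relative that dominates in the lateral eminence, was lower than Gsx1 in every intra-CNS tumor and followed another order. It was at 21.1 TPM in 29050A, 6.32 in R26P98, 5.13 in 38594A, 1.02 in 29048 and 0.133 in R26P87, where only 2 reads were counted. In the outside tumors it was highest in 43998A (33 reads, 1.47 TPM), 43992A (9 reads, 0.618 TPM) and 29225D (13 reads, 0.285 TPM), and 8 of 11 tumors had 3 reads or fewer. The groups overlapped: 4 outside tumors lay at or above R26P87, and 43998A also lay above 29048. The log2 fold change was 4.32 ± 1.35 (adjusted p = 0.0217). The call rested on 29050A, since without this tumor the log2 fold change was 3.20 (adjusted p = 0.101), and without 43998A it was 5.49 (0.00563).

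The balance of the 2 Gsx genes differed between intra-CNS tumors. The ratio of Gsx1 to Gsx2, in TPM, was 3.18 in 29050A, 6.69 in R26P98, 11.1 in 29048 and 13.6 in 38594A. R26P87 stood apart, as the tumor with the highest Gsx1 (858 TPM) and with Gsx2 at the floor. Dlx5 and Dlx6, which normally follow Dlx1 and Dlx2 as cells differentiate, were lowest in R26P87 among intra-CNS tumors, at 1.10 and 0.620 TPM, whereas Dlx1 and Dlx2 were at 176 and 121 TPM there. These are values of a single tumor and were not tested.

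Nkx2-1 was at 11.3 TPM in 29048, 22.8 in 38594A, 0.620 in 29050A, 11.8 in R26P98 and 8.17 in R26P87. Among outside tumors R26P170 had 20 reads (0.560 TPM), and the other 10 had 3 reads or fewer. The groups did not overlap, but 29050A (45 reads) and R26P170 came close. The log2 fold change was 6.82 ± 1.15 (adjusted p = 0.000344), and 8.63 without R26P170 (1.51e-05). Among tumors induced at E6 only (5 against 2) it was 4.51 and not called (adjusted p = 0.0761), nor was Gsx2 (10.06, 0.0756), whereas Gsx1 (15.13, 0.0423), Vax1 (6.19, 0.0282) and Sox6 (5.28, 0.00525) were called. That fit called 3533 of 20904 genes, 1315 higher and 2218 lower. The intra-CNS tumor with the least Nkx2-1, 29050A, was the one with the most Gsx2. Shh, the ligand that induces Nkx2-1 in the embryo, was also lowest in 29050A among intra-CNS tumors, at 2.72 TPM, against 8.13 to 81.9 TPM in the others. However, Shh was highest in R26P98 and Nkx2-1 in 38594A, and a link between these genes was not tested. Nkx2-1 is also a factor of thyroid and lung. Of 12 markers of these tissues, the thyroid hormone precursor Tg reached at most 0.151 TPM in any tumor, and the marker sum was 4.34 to 24.3 TPM in intra-CNS tumors, against 7.43 to 421 TPM outside.

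Lhx8 and Lhx6, which normally follow Nkx2-1 in the medial eminence, were lower in intra-CNS tumors, unlike 8 of the 13 genes of the medial eminence list. Lhx8 lay between 0.0561 and 0.407 TPM in the intra-CNS tumors, with a median of 0.112, and had a median of 59.4 and a highest value of 262 TPM outside (log2 fold change -9.29 ± 1.80, adjusted p = 0.000995). Lhx6 lay between 0.116 and 1.33 TPM in intra-CNS tumors, with a median of 0.925. Outside, its median was only 1.39 TPM, and it reached 38.6 TPM in 29225D (-3.68 ± 1.23, adjusted p = 0.0304). The groups overlapped for both genes, since Lhx8 was at 0.0460 TPM in R26P115 and 0.185 TPM in 43990A, and Lhx6 was as low as 0.152 TPM outside. Lhx6 and Lhx8 also act in the mesenchyme of the jaws and teeth. Among the other genes of the medial eminence list, Nkx6-2, Nxph1, Sst, Pvalb and Satb1 were among those higher in intra-CNS tumors. Nxph1, a secreted ligand of interneurons, had a median of 68.0 TPM there and 0.385 TPM outside (5.46 ± 0.89, adjusted p = 0.000254).

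**Figure D2:**
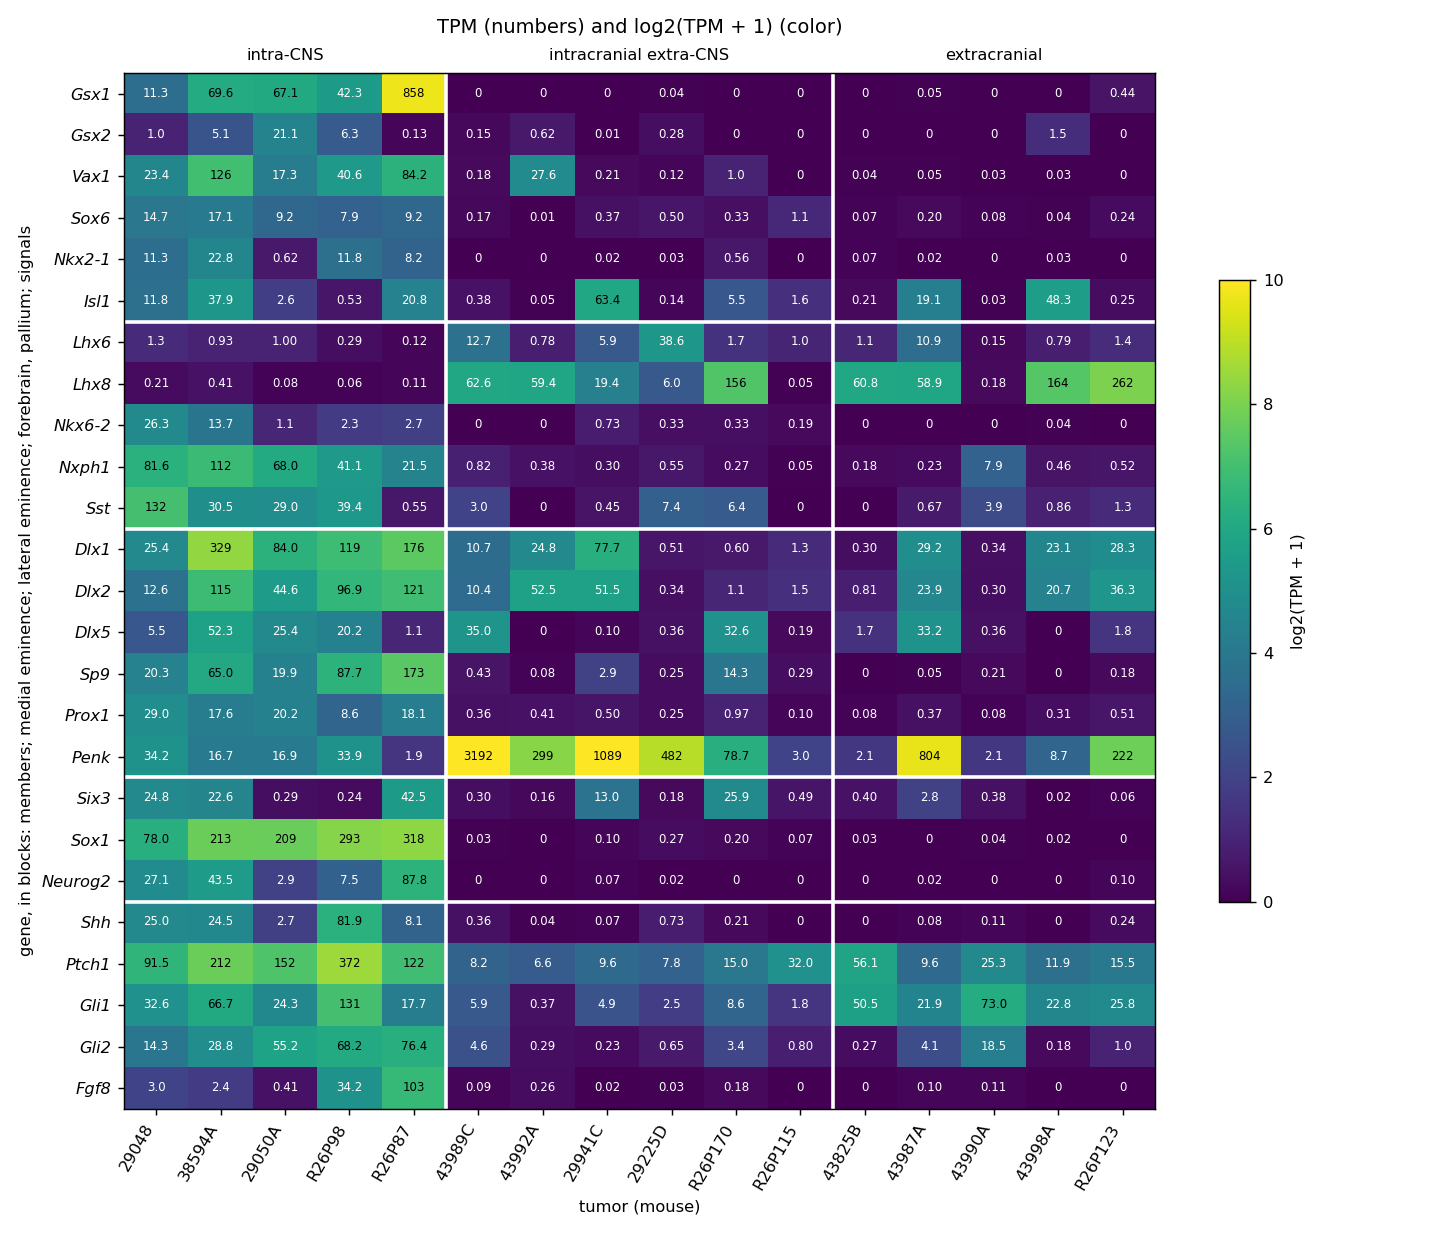
TPM (numbers) and log2(TPM + 1) (color) of the 6 members and of 19 regional and signaling genes (rows) in the 16 tumors (columns), with white lines between groups. Nkx2-1 is high in 4 of 5 intra-CNS tumors while Lhx8, at most 0.41 TPM there, is at 6.0 TPM or more in 9 of 11 outside tumors. The rows outside the members were chosen for display after their values were seen.

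Sox6 was the most even member within the intra-CNS group, with a mean of 3.60 ± 0.45 (SD, n = 5) on the log2(TPM + 1) scale. It was at 14.7 TPM in 29048, 17.1 in 38594A, 9.24 in 29050A, 7.86 in R26P98 and 9.21 in R26P87. Outside tumors ranged from 0.0122 to 1.14 TPM, with a median of 0.201, and R26P115 was the highest. The groups did not overlap, and the log2 fold change was 4.76 ± 0.71 (adjusted p = 0.000127), or 5.35 without R26P115 (1.17e-05). Sox6 also acts in cartilage, muscle, red blood cells and the oligodendrocyte lineage. The oligodendrocyte markers were raised in 29048, and without 29048 and R26P115 the log2 fold change of Sox6 was 5.26 ± 0.63 (adjusted p = 4.29e-05). Skeletal muscle markers summed to at most 9.74 TPM in the intra-CNS tumors. Cartilage markers summed to 55.6 to 193 TPM in intra-CNS tumors and 3.05 to 82.7 TPM outside, and 2 of 8 were higher in intra-CNS tumors. Their part in the Sox6 result was not tested. Of the erythroid markers, the globin genes were listed at or near 0 in every tumor, so that this list could not be read.

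Vax1 was at 23.4 TPM in 29048, 126 in 38594A, 17.3 in 29050A, 40.6 in R26P98 and 84.2 in R26P87. Outside, 43992A had 27.6 TPM (656 reads), above 2 of the 5 intra-CNS tumors. R26P170 had 1.02 TPM, and the other 9 outside tumors had 0.206 TPM or less. With 43992A included, Vax1 was not called (log2 fold change 3.83 ± 1.55, adjusted p = 0.0685). Without 43992A the log2 fold change was 7.92 (adjusted p = 6.54e-05). DESeq2's Wald test, which called 33.9% of genes (16.8% higher and 17.1% lower), called Vax1 with all 16 tumors (adjusted p = 0.0305), as did limma on log2(TPM + 1) (adjusted p = 6.24e-05). In 43992A no other member exceeded 1 TPM, and Dlx1 and Dlx2 were at 24.8 and 52.5 TPM. Vax2, the relative of Vax1 in the ventral retina, had the opposite direction: it was at most 0.0875 TPM in intra-CNS tumors and reached 9.77 TPM outside, in R26P170 (log2 fold change -6.08, adjusted p = 0.00535).

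Isl1 did not separate the groups. It was at 11.8 TPM in 29048, 37.9 in 38594A, 2.58 in 29050A, 0.526 in R26P98 and 20.8 in R26P87. Outside, 29941C (63.4 TPM), 43998A (48.3 TPM), 43987A (19.1 TPM), R26P170 (5.50 TPM) and R26P115 (1.62 TPM) lay above R26P98, and the other 6 tumors had 0.384 TPM or less. The 2 highest tumors were thus outside the CNS. The log2 fold change was -0.32 ± 1.51 (adjusted p = 0.884), and the difference of the means of log2(TPM + 1) was 1.22, of the other sign. Without 29941C the log2 fold change was 0.38 and without 43998A it was 0.19.

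Isl1 is also found in sensory and motor neurons, the pituitary and the heart. Of the tumors high in Isl1, 29941C and 43998A had the highest summed levels of differentiated neuron markers among outside tumors, at 1753 and 821 TPM, whereas 43987A had 171 TPM. The sensory and motor neuron markers summed to 8.21 TPM in 29941C, 19.8 in 43998A and 22.7 in 43987A, and were higher in 43825B (43.1 TPM), where Isl1 was at 0.208 TPM. Runx1 had by far the highest mean count of these 13 markers (943, followed by Prph with 114). It was called lower in intra-CNS tumors (log2 fold change -3.04), whereas 3 of the 13 were called higher. The tumor 43825B also had the highest sum of macrophage and microglia markers (5886 TPM). Pituitary markers summed to 344 TPM in R26P170, where Lhx3 was at 16.6 TPM, and to 425 TPM in 43989C, where Isl1 was at 0.384 TPM. In 29941C, 43998A and 43987A they summed to at most 3.11 TPM. Heart markers summed to 94.9 to 439 TPM in the intra-CNS tumors and to 0.318 to 83.6 TPM outside. Of these 8 genes only Hand2, which is also a factor of sympathetic neurons, was higher (3.94 ± 1.32, adjusted p = 0.0302), and it made up most of the sum in every intra-CNS tumor, with 84.1 TPM in 29048 and 439 TPM in R26P98. Nkx2-5 and Tbx5 were at 0.358 TPM or less in every tumor. The part of these cell types in the Isl1 levels was not tested.

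Of all outside tumors, 29941C had the highest summed level of the general forebrain genes, 120 TPM, against 1642 TPM or more in the intra-CNS tumors. Dlx1 and Dlx2 were at 77.7 and 51.5 TPM there. Nevertheless Gsx1 had no read in 29941C among 110177889 counts, Gsx2 had 1 and Nkx2-1 had 3, and Sox1, a factor of neural progenitors at 78.0 TPM or more in the intra-CNS tumors, was at 0.0978 TPM. This tumor was picked out after its values were seen.

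The outside tumors were then compared by site, since they arose both within and outside the skull. No member was called between the 6 intracranial extra-CNS and the 5 extracranial tumors, and 1 gene of 21261 was called at all (0.0047%): Ttc39aos1, higher in intracranial tumors. At an unadjusted p under 0.05 there were 2606 genes, among them 1 member, Vax1 (7.32 ± 2.17, adjusted p = 0.346), whose 5 extracranial tumors all had 3 reads or fewer. Without 43992A this value was 3.28, and limma on log2(TPM + 1) gave 1.05. The values of the other members were -2.95 ± 1.40 for Gsx1, -0.78 ± 1.71 for Gsx2, 1.83 ± 0.92 for Sox6, 2.09 ± 1.51 for Nkx2-1 and -0.25 ± 1.85 for Isl1, with adjusted p from 0.415 to 0.967. Without R26P123 the value of Gsx1 was -0.62 and without 29225D it was -4.53, and without R26P115 that of Sox6 was 1.14. DESeq2 called 490 genes in this comparison (2.89%, with 1.83% higher and 1.06% lower in intracranial extra-CNS tumors) and no member, with no adjusted p given for Vax1, and limma called 1 (0.00471%).

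Set against each outside site in 1 fit of all 16 tumors, the intra-CNS tumors had more Gsx1, Sox6 and Nkx2-1 than either. These contrasts share the intra-CNS tumors, and 23% of genes were called against intracranial extra-CNS (10.8% higher, 12.2% lower) and 25% against extracranial tumors (12.1% higher, 12.9% lower). Gsx1 had a log2 fold change of 13.39 ± 1.66 against intracranial extra-CNS tumors (adjusted p = 9.81e-05) and 10.47 ± 1.54 against extracranial tumors (0.000251). The first value depends on the prior count of the fit, because the 6 intracranial extra-CNS tumors held 2 reads in all, and the ratio of pooled CPM was 14276 (95% interval for counting error, 3951 to 117889). Without R26P87, which held most Gsx1 reads, this ratio was 4705 (1302 to 38858). The fitted values of Gsx1 were 11.30 and 8.36 without R26P87, 15.11 against intracranial extra-CNS tumors without 29225D, and 12.71 against extracranial tumors without R26P123. Sox6 had 4.19 ± 0.76 (0.00106) and 6.03 ± 0.89 (0.000261), and Nkx2-1 had 6.20 ± 1.36 (0.00366) and 8.33 ± 1.66 (0.00186). Without R26P115 the first value of Sox6 was 4.90, and the values of Nkx2-1 were 8.91 without R26P170 and 9.17 without 43825B. Vax1 was called against extracranial tumors (10.32 ± 2.12, adjusted p = 0.00232) and not against intracranial extra-CNS tumors (2.95 ± 1.37, 0.120), the group that includes 43992A. The extracranial tumors held 6 reads of Vax1 and 4 of Nkx2-1 in all, for pooled CPM ratios of 1423 (653 to 3878) and 399 (156 to 1467), and their fitted values likewise depend on the prior count. Without 38594A these ratios were 947 and 264, and without 29050A that of Nkx2-1 was 615. Without 43992A, Vax1 had a log2 fold change of 7.06 against intracranial extra-CNS tumors (adjusted p = 0.000409). Gsx2 was called against neither (4.74 ± 1.75, 0.0541, and 3.95 ± 1.80, 0.112), but without 43998A it was called against extracranial tumors (10.19, 0.00985), and against intracranial extra-CNS tumors it passed the threshold when any of 6 tumors was left out, 43992A among them (5.71, 0.0436).

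**Figure D3:**
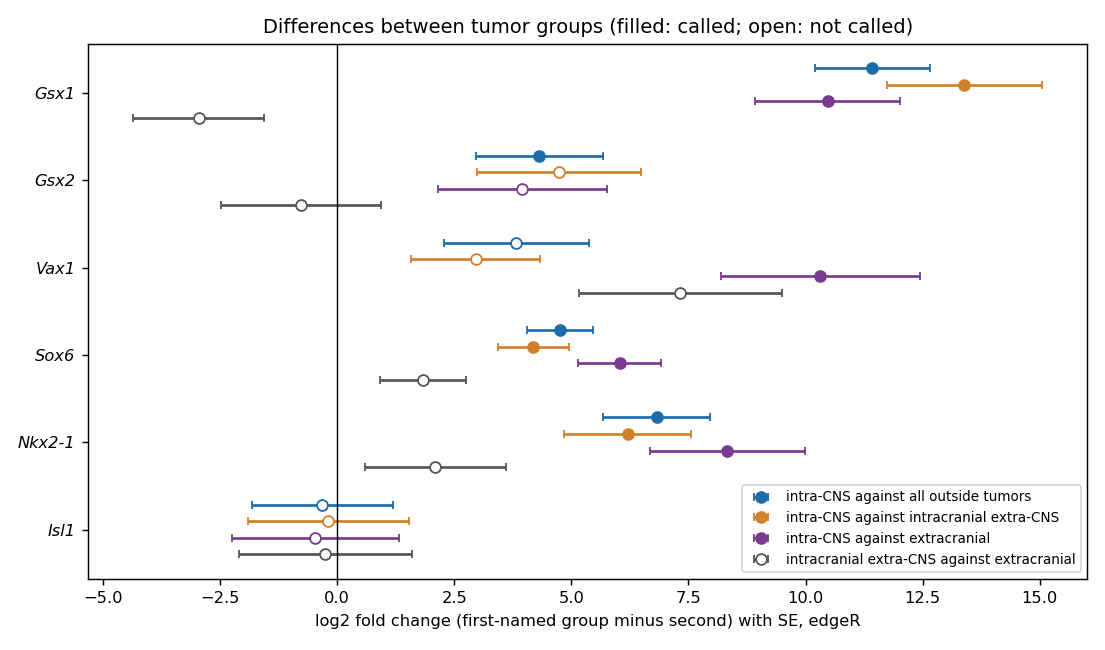
Log2 fold change with its SE for each member in 4 contrasts, fitted with edgeR; filled points were called and open points were not. Gsx1, Sox6 and Nkx2-1 are filled in each contrast with intra-CNS tumors, Isl1 lies near 0 in all, and no member is filled between the outside sites.

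Within tumors, 5 or 6 members were over the floor in each intra-CNS tumor and 1 to 4 in each outside tumor. Vax1 was among the 3 highest members by TPM in every intra-CNS tumor, and Gsx1 was the highest in 29050A, R26P98 and R26P87. In the outside tumors Isl1 was the highest member in 7 of 11. Gsx2 was the lowest member in 29048, 38594A and R26P87, Nkx2-1 in 29050A and Isl1 in R26P98.

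Lists of genes of the forebrain regions were examined to place the members. Of 13 genes of the medial eminence and its interneurons, 8 were higher and 3 lower in intra-CNS tumors, and the median log2 fold change was 3.92, against -0.15 over all genes tested. The members Nkx2-1 and Sox6 are among the 8. Of 28 genes of the lateral and caudal eminences and the striatum, 9 were higher, among them the members Gsx1 and Gsx2, and 2 lower (median 0.83). Prox1, a factor of caudal eminence interneurons, had a log2 fold change of 5.18 ± 0.50 (adjusted p = 4.73e-06), and Sp9, a zinc finger factor of eminence neurons, 4.91 ± 1.31 (0.00875). The lower genes were Penk, the enkephalin precursor (-5.27 ± 1.77, 0.0309), and Ikzf1, which is also a lymphoid factor (-3.07 ± 0.73, 0.00410).

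The Dlx genes, which lie below Gsx factors in the eminences, did not pass the test. Dlx1 had a log2 fold change of 2.51 ± 1.04 (adjusted p = 0.0744), Dlx2 1.57 ± 1.01 (0.236), Dlx5 0.60 ± 1.45 (0.765) and Dlx6 0.70 ± 1.69 (0.766). Dlx2 was at 10.4 TPM or more in 6 of 11 outside tumors, in which Gsx1 was at 0.441 TPM or less and Gsx2 at 1.47 TPM or less.

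Lists of other forebrain regions were read beside the 12.9% of all genes that were higher and the 13.1% that were lower. Of 14 pallial genes, 7 were higher and none lower (median 2.99), among them Neurog2, a proneural factor of the dorsal telencephalon (9.80 ± 0.94, adjusted p = 4.72e-06), Neurod6 (8.18 ± 1.08, 5.25e-05) and Bhlhe22 (3.20 ± 0.68, 0.00188). Of 20 genes of the hypothalamus and preoptic area, which include 4 members, 8 were higher and none lower (median 0.88), with Foxb1, a mammillary factor, at 8.39 ± 1.07 (4.03e-05) and Sim1 at 3.75 ± 1.39 (0.0484). Foxb1 was highest in 38594A (21.0 TPM), the tumor with the most Nkx2-1, and Sim1 was highest in 29048 (9.65 TPM). Rax, Hmx2 and Hmx3, factors of the hypothalamus, were at 0.884 TPM or less in every tumor. Of 10 genes of the forebrain in general, 5 were higher and none lower (median 2.75), with Sox1 at 11.03 ± 0.80 (4.20e-07) and Fabp7, a radial glia protein, at 7.06 ± 1.07 (0.000145). Of 12 genes of the optic stalk and retina, 2 were higher and 2 lower (median 1.13), a share near that of all genes.

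Of 18 ventral patterning signals and inhibitors, 8 were higher and 1 lower (median 1.78). Shh had a median of 24.5 TPM in intra-CNS tumors and 0.0839 TPM outside (6.89 ± 0.98, adjusted p = 9.56e-05). Fgf8 ranged from 0.414 to 103 TPM in intra-CNS tumors and was at most 0.260 TPM outside (8.09 ± 1.16, 9.86e-05). It was highest in R26P87, the tumor with the most Gsx1. Gli2, an activator of the pathway, had 3.49 ± 0.91 (0.00787), and the Hedgehog receptor and target Ptch1 2.86 ± 0.48 (0.000335). Gli1, another target, was not called (0.96 ± 0.84, 0.390), with 73.0 TPM in 43990A and 50.5 TPM in 43825B among outside tumors. Bmp4, a dorsal signal, was lower (-2.38 ± 0.73, 0.0191). Without 29048 and R26P115, the numbers of genes higher were 8 of 13 for the medial eminence, 8 of 28 for the lateral and caudal eminences, 7 of 20 for the hypothalamus, 8 of 14 for the pallium, 4 of 10 for the forebrain in general, 1 of 12 for the optic stalk and retina and 8 of 18 for the signals, against 3072 of all 21700 genes tested in that fit.

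**Figure D4:**
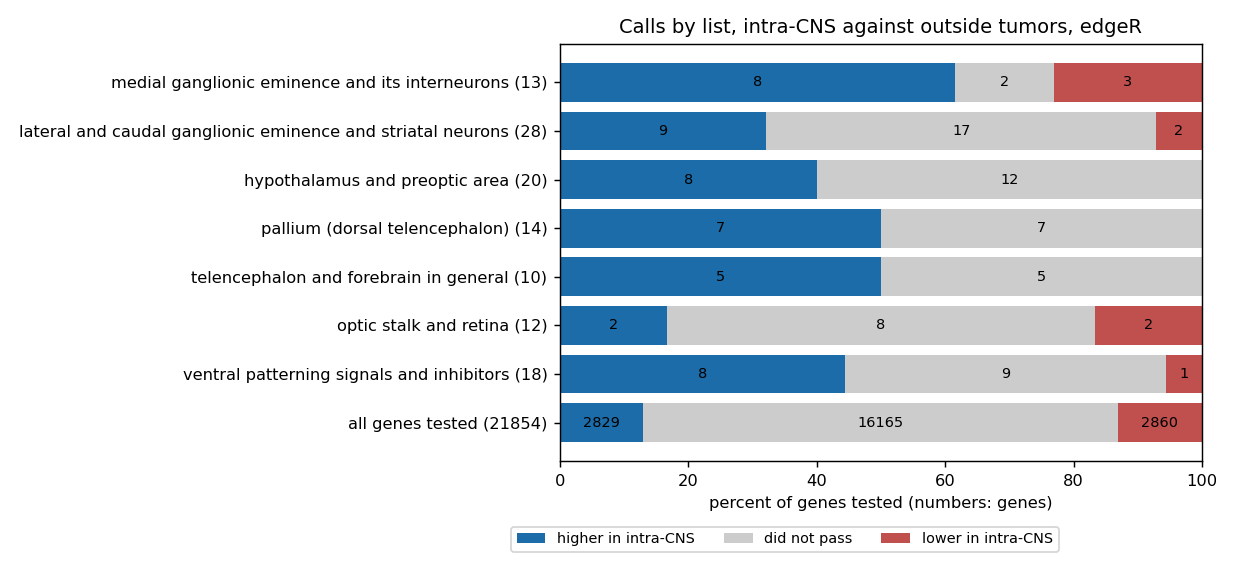
Share of the genes of each list, in percent of those tested, that were higher in intra-CNS tumors (blue), did not pass (gray) or were lower (red), with numbers of genes in the bars and all 21854 genes at the bottom. The share higher is 8 of 13 for the medial eminence list, which is also the list with 3 lower genes. Members count in the lists that hold them.

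For each member, the 3 genes with the most similar pattern were named by Pearson's r of log2(TPM + 1) over the 16 tumors, searched over 14797 genes whose mean count reached 50. The 16 tumors fall into groups at different levels, so that r is high for many genes and is given as a description, with Spearman's rho beside it. For Gsx1 these were Cdx2 (r = 0.987, rho = 0.739), Dll3 (0.984, 0.805) and Nkx2-3 (0.980, 0.864), each highest in R26P87. For Gsx2 they were Ankrd63 (0.953, 0.741), Sctr (0.937, 0.590) and Pdzd3 (0.931, 0.648), each highest in 29050A. For Nkx2-1 they were Shh (0.948, 0.635), Tbc1d22b (0.945, 0.687) and Pax5 (0.939, 0.684). For Vax1 they were Shd (0.971, 0.820), Prrt4 (0.968, 0.876) and Rtf1 (0.960, 0.808), and for Sox6 Ntm (0.988, 0.947), Ambra1 (0.986, 0.906) and Adgrb3 (0.986, 0.903). For Isl1 the values were lower, with March4 (0.863, 0.850), Uprt (0.785, 0.832) and Edil3 (0.771, 0.785).

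**Figure D5:**
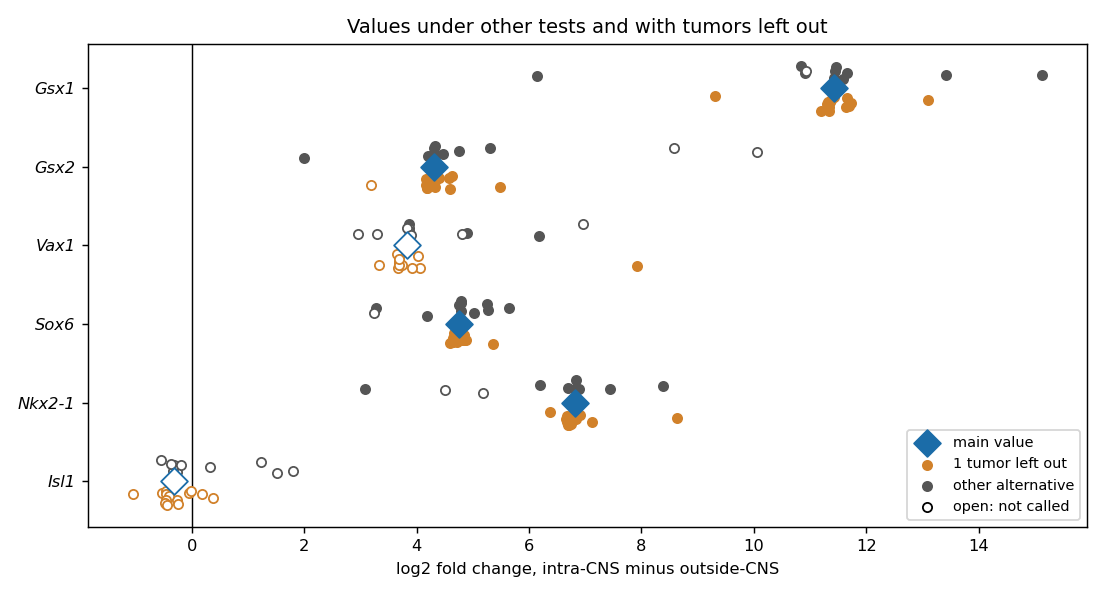
Log2 fold change of each member between intra-CNS and outside tumors in the main fit (diamond), with 1 tumor left out (orange) and under the other alternatives (gray); filled symbols were called and open ones were not. Gsx1, Gsx2, Vax1, Sox6 and Nkx2-1 stay above 0 throughout, Gsx1 between 6.15 and 15.13, and Isl1 lies on both sides of 0.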

How the data were processed

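RNA-seq libraries (polyA RNA, stranded TruSeq, paired reads of 100 bp) were made from 16 tumors. The authors trimmed reads with Trim Galore, aligned them to mm10 with STAR 2.5.3a and deposited raw read counts per gene. The authors also deposited TPM per gene in a separate table. Counts (24982 genes; totals of 17889968 to 110177889) were used for all tests and TPM for levels.

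Tumors were grouped by the location in their labels. Every gene counted at least once entered edgeR 4.0.16 (TMM, quasi-likelihood test, R 4.3.3) with Benjamini-Hochberg adjustment, and calls were made as defined in the report. Fits held 16 tumors in 2 groups, the same in 3 groups, or the 11 outside tumors by site. Alternatives were DESeq2 1.42.0, limma 3.58.1 on log2(TPM + 1), pseudocounts of 0.1 and 0.5, DESeq2's size factors, filterByExpr, dropping the fold limit, a covariate for how mice are named (numbers or R26P), subsets of tumors, and each tumor left out. Fits were tested on simulated data.

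The members and lists were chosen with earlier results of these data known. Named besides the members were up to 3 genes per list and direction with the most extreme called change and a mean count of at least 50, and 3 genes of like pattern per member. Other genes were named for their role or after their values were seen. Upstream windows came from a RefSeq table. Erythroid markers were too low to be read. Some genes of the lists are not reported here by name, and the counts of the lists include them.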

Additional observations from a re-analysis of the deposited data

Results flagged for a closer look

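The 6 members and Smarcb1 in 3 sites made 21 groups. In each, the highest and the lowest tumor were compared with the rest by Dixon's ratio on log2(TPM + 1). Chance flags about 1 in 20 groups of normally distributed values, a rate that does not apply where most tumors had no read. There were 5 flags, each for the highest tumor of an outside group. Vax1 in 43992A (27.6 TPM, 656 reads) stood far from the other 5 intracranial extra-CNS tumors, and Nkx2-1 in R26P170 (0.560 TPM, 20 reads) stood far from the others of that site. Gsx2 in 43998A (1.47 TPM, 33 reads) and Gsx1 in R26P123 (0.441 TPM, 11 reads) stood far from the other extracranial tumors. Gsx1 in 29225D (0.0412 TPM) rested on 2 reads, at the floor. The other 5 tumors of that site had no read of Gsx1, and the other 4 extracranial tumors had none of Gsx2. With all others at 0, any read gives a flag.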

How the results depend on the processing

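Between intra-CNS and outside tumors, 145 of 162 member values under the alternatives kept their direction and their side of the threshold. Vax1, not called in the main analysis, was called with DESeq2 (3.86), limma (4.91) and tumors induced at E6 only (6.19), and ranged from 3.34 to 7.92 as each tumor was left out, called only without 43992A. Gsx2 ranged from 3.20 to 5.49, lost only without 29050A. With E6 tumors only (5 against 2), 3533 genes were called, 37.2% of them higher, and the calls of Gsx2 (10.06) and Nkx2-1 (4.51) were lost. With R26P mice only (2 against 3), 0 genes and 0 members were called, and Gsx1 (10.92), Gsx2 (8.57), Sox6 (3.24) and Nkx2-1 (5.18) kept their direction; fewer tumors entered both fits. Isl1 changed sign with limma (1.22), the name scheme as a covariate (0.32), E6 tumors (1.80) and R26P mice (1.51), and ranged from -1.04 to 0.38 with a tumor left out; the cause was not tested. The median of all genes was -0.15 in the main analysis, 0.20 with limma and 0.12 with E6 tumors. On log2(TPM + pseudocount), a pseudocount of 0.1 gave differences of 9.17 for Gsx1, 3.90 for Gsx2, 7.20 for Vax1, 5.21 for Sox6 and 5.73 for Nkx2-1, against 6.15, 2.0, 4.91, 3.27 and 3.07 with 1, and 0.5 gave 3.97 for Sox6.

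By site outside the CNS, DESeq2 called 490 genes, E8 tumors only gave 0, the fit without R26P115 0, and leaving out each tumor 0 to 3. Nkx2-1 reversed with E8 tumors only (-0.18) and Isl1 with the covariate (0.48). With a tumor left out, Gsx2 ranged from -1.74 to 5.39, Nkx2-1 from -0.67 to 2.98 and Isl1 from -3.14 to 1.23. Against each site, Isl1 ranged from -0.90 to 2.68 (intracranial extra-CNS) and from -1.18 to 1.05 (extracranial). Against intracranial extra-CNS tumors, Gsx2 was called with DESeq2 (4.73) and filterByExpr (4.77). No paired analysis was possible because no 2 tumors came from the same mouse and replicate numbers follow accession order. Depth limits the members at 3 reads or fewer, for which no difference between outside tumors was detectable.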
